A study of Mus musculus with 6 samples.

Results

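The p53 target genes are a set of 10 mouse genes named for this account: *Cdkn1a*, *Mdm2*, *Ccng1*, *Bax*, *Bbc3*, *Eda2r*, *Phlda3*, *Trp53inp1*, *Sesn2* and *Gdf15*. They were taken by gene symbol from a deposited expression table with values for 12603 rows, and were chosen with earlier results of these data known. A row was found for 9 of them, each in 1 row, and *Eda2r*, a receptor of the TNF receptor family, is not analysed here. The libraries are polyadenylated RNA from mouse liver. A group of 3 libraries is labelled AKR1D1KO (KO here), for mice whose *Akr1d1* gene is knocked out, and a group of 3 is labelled WT, for wild-type mice. Both groups carry the label Hepa1-6-induced HCC model, and the mice carried tumours grown from Hepa 1-6, a mouse hepatoma cell line. The labels give the knockout to the mice and do not say how the allele was made, the strain, age or sex, whether tumour was part of the tissue, or whether each library is a separate animal. P-values therefore measure the spread between these libraries, which may be technical.

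p53 is a transcription factor that accumulates after DNA damage and other stress and switches on genes that stop the cell cycle, kill the cell, adjust its metabolism, or restrain p53 itself. The arrest arm is led by *Cdkn1a*, which encodes the cyclin-dependent kinase inhibitor p21. The feedback arm is led by *Mdm2*, the ubiquitin ligase that marks p53 for destruction, and the death arm by pro-apoptotic members of the BCL2 family such as *Bax* and *Bbc3*. In liver these genes answer to genotoxic injury and to the loss and regrowth of hepatocytes, and several of them also answer to signals that do not pass through p53.

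The DNA element through which p53 binds is shown first, with the 3 genes that had a match to it in the windows searched. p53 binds a pair of half-sites of 10 bases each. The p53 consensus, which reads the same on both strands, was searched in RefSeq promoter windows (build GRCm38.p6) that run from 250 bases before to 50 bases after an annotated start. Such windows existed for 9 of the 10 genes, 13 windows in all, with none for *Trp53inp1*. A pair of adjoining half-sites with at most 3 of 20 bases off the consensus, and with the invariant C and G of each half-site intact, occurred in 1.38% of 32851 windows of all genes. Among the p53 target genes it occurred in 1 window each of *Cdkn1a*, *Ccng1* and *Bbc3*. The search was set after these windows had been read, so the share of all windows is no test of the 3 matches. The matched 20 bases are given here on the strand of the gene:
Cdkn1a, chr17:29090928-29090947, plus strand: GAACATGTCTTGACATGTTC
Ccng1, chr11:40755462-40755481, minus strand: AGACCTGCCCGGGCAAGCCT
Bbc3, chr7:16309486-16309505, plus strand: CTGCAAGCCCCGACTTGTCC

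The *Cdkn1a* and *Ccng1* matches are each 1 base off the consensus, a closeness reached by 0.067% of all windows, and the *Bbc3* match is 3 bases off. The *Cdkn1a* match lies 51 to 32 bases before the start of the upstream of the gene's 2 annotated promoters. The *Bbc3* match lies 97 to 78 bases before the first of its 3 RefSeq starts. GENCODE begins *Bbc3* further upstream, at 16308393, so the match lies inside the gene as annotated there. The *Ccng1* match lies 195 to 176 bases before its start. In *Mdm2* and *Bax* only a single exact half-site was found, as in 8.36% of all windows. A match describes the letters of a window and not binding, and its absence says only that these letters are not in that window. The windows of the 4 genes whose KO and WT libraries did not overlap follow, with the matched pair, or in *Mdm2* and *Bax* the single half-site, in capitals:
Cdkn1a, chr17:29090729-29091028, plus strand: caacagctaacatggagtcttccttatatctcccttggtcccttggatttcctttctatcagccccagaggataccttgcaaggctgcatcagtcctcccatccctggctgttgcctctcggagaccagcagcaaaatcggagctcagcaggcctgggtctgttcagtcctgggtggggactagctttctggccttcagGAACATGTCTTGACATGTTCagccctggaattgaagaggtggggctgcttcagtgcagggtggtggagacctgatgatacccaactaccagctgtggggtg
Bbc3, chr7:16309333-16309632, plus strand: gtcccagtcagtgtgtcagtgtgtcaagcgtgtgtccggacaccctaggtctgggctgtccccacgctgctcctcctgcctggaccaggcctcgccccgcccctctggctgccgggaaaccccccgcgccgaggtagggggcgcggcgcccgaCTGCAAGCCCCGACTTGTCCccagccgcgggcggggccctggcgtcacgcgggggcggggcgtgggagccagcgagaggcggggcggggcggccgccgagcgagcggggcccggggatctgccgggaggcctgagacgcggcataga
Mdm2, chr10:117710709-117711008, minus strand: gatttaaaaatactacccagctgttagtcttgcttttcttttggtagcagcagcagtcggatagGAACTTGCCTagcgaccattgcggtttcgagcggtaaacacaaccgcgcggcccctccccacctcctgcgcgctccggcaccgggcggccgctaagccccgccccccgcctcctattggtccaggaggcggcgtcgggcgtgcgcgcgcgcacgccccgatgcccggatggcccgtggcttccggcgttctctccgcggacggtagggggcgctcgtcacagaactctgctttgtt
Bax, chr7:45466849-45467148, minus strand: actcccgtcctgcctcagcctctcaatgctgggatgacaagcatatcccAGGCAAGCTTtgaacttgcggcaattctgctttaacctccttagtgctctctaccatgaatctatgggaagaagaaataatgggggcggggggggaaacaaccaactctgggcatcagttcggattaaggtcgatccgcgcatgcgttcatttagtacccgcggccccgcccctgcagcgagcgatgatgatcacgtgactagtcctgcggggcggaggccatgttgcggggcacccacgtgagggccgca

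**Figure D1:**
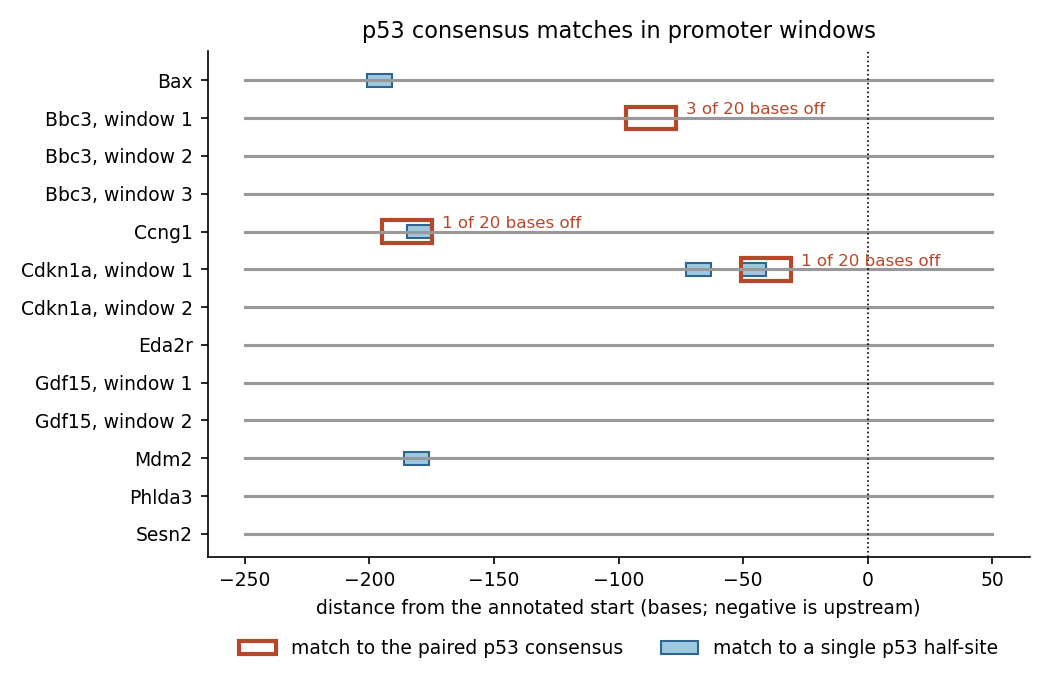
Position of matches to the p53 consensus in 13 promoter windows of 9 p53 target genes, in bases from the annotated start (negative is upstream). Open red boxes mark adjoining half-site pairs at most 3 of 20 bases off the consensus and filled blue boxes mark single exact half-sites. Pairs stand in 1 window each of Cdkn1a, Ccng1 and Bbc3.

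Each deposited value is a linear ratio. The values fit a division of each gene by its own average across 7 libraries (1 of these is not analysed here), so a value of 1 is the gene's average and levels of different genes cannot be compared. The number of reads per library is unknown, and estimated relative depth spanned 1.24-fold over the 6 libraries. For none of the 9 genes did a count of 8 or fewer reads in its highest library give whole numbers (to 0.1 of a read) in every library, the pattern by which rows resting on a handful of reads can be recognised. Since depth was itself estimated, the lack of this pattern does not show that a gene rested on many reads. The values of the targeted gene ran against the labels. *Akr1d1* stood at 1.22, 1.21 and 1.35 in the libraries labelled KO and 0.826, 0.697 and 0.881 in those labelled WT (chromosome 6, 37530173 to 37568815, plus strand, mm10). Every direction given here is therefore between libraries as labelled. All KO libraries of *Akr1d1* were above all WT libraries, as in 8.86% of all rows, and the limma adjusted p was 0.170. A predicted gene, Gm7463, overlaps *Akr1d1* on the same strand, so reads of the overlap cannot be assigned with certainty. Hepatocyte markers had no value at 0 in any library for the 10 of 11 tested, but since abundance is removed from the values the tissue label cannot be checked by level.

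None of the 9 p53 target genes passed an adjusted p of 0.05 in limma's moderated test over 12578 rows, in either direction, where 0.0159% of all rows passed. At an unadjusted p under 0.05 there were 2 of the 9, *Cdkn1a* and *Bbc3*, both with higher values in the libraries labelled KO, where 12.0% of all rows met that level. In 4 genes the groups did not overlap. *Cdkn1a* and *Bbc3* had every KO library above every WT library, which 8.86% of all rows did. *Mdm2* and *Bax* had all KO libraries below all WT libraries, which 10.1% of all rows did. The arms thus did not lie on one side: the arrest gene and 1 death gene were on the higher side, and the main feedback gene and another death gene were on the lower side. The median log2 change, taken on log2(value + 0.1) as KO minus WT, was 0.11 over the 9 genes and -0.0043 over all rows tested. Leaving out any 1 of the 6 libraries gave a median over the 9 genes between 0.002 (without KO replicate 1) and 0.07 (without WT replicate 2).

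**Figure D2:**
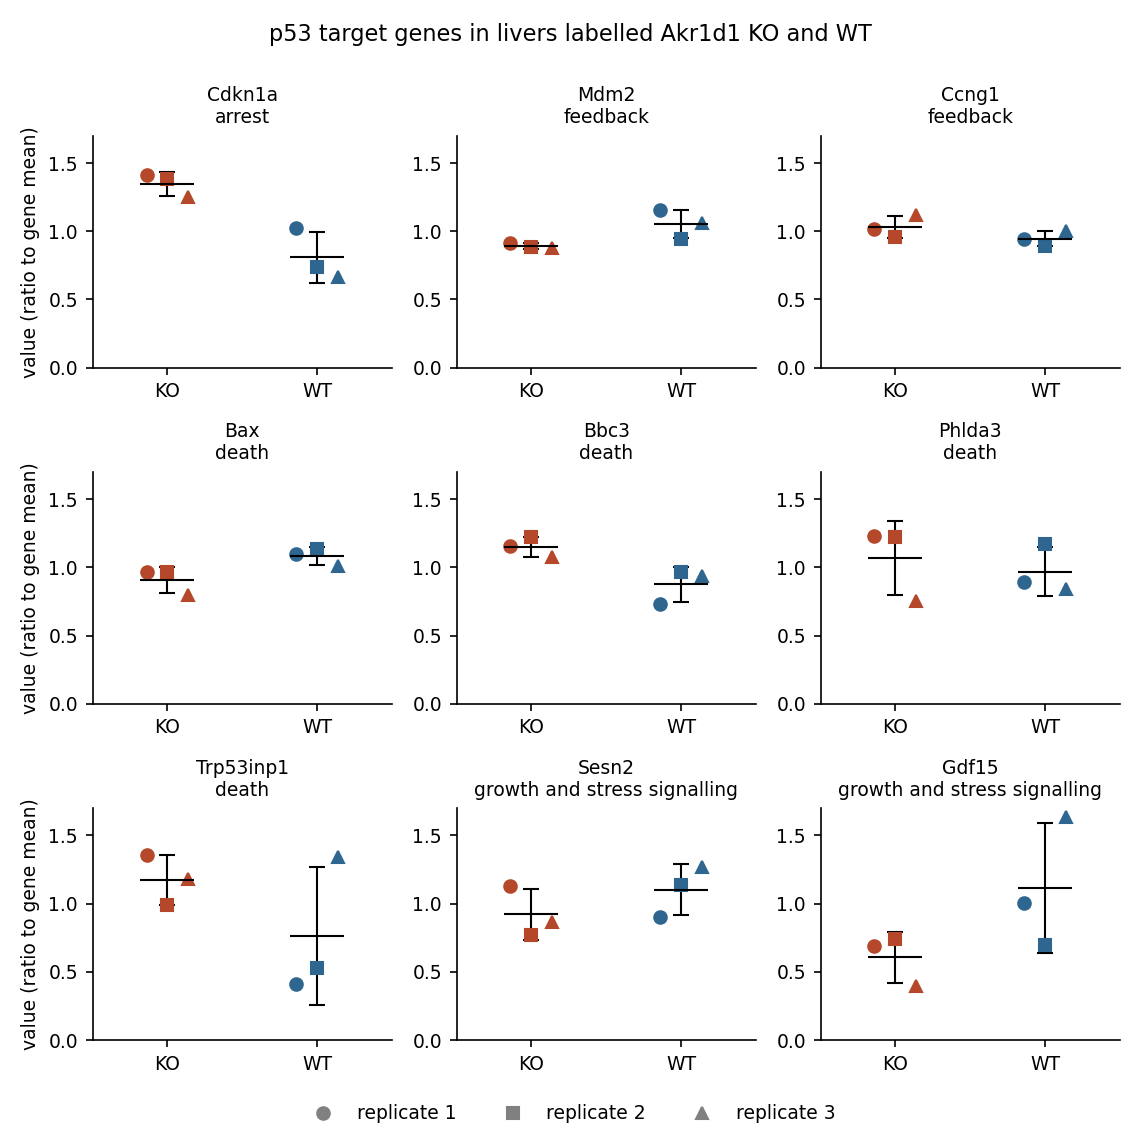
Deposited value (ratio to the gene's own mean) of each p53 target gene in 3 KO libraries (red, left) and 3 WT libraries (blue, right). Symbols mark replicates, and bars give the group mean and SD. Cdkn1a and Bbc3 have all KO points above all WT points, and Mdm2 and Bax have all KO points below all WT points.

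*Cdkn1a*, the arrest gene (chromosome 17, 29090976 to 29100727, plus strand, mm10), was at 1.41, 1.39 and 1.25 in the libraries labelled KO, against 1.02, 0.736 and 0.665 in those labelled WT. The lowest KO library stood above the highest WT library, and the WT libraries spread more widely than the KO libraries. The mean was 1.35 ± 0.0880 in KO libraries and 0.808 ± 0.189 in WT libraries (SD, n = 3 each), a 1.67-fold higher mean. Limma gave a log2 change of 0.69 (SE 0.16, 95% interval 0.30 to 1.08, not corrected for the number of genes) and an adjusted p of 0.225. The exact permutation p, two-sided, was 0.1, the smallest that 3 against 3 libraries can give. This change stood at percentile 96.1 of all rows tested. An antisense gene annotated as AC167363.2 overlaps *Cdkn1a*, and without knowing whether strand was used in counting its reads cannot be told apart. The gene's upstream window is the one that holds the close match to the p53 consensus printed above, but gene-level values do not say which of its 2 promoters the RNA came from.

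The feedback genes differed by little between the groups. *Mdm2* (chromosome 10, 117688875 to 117710758, minus strand) was at 0.914, 0.888 and 0.876 in the libraries labelled KO, against 1.15, 0.946 and 1.06 in those labelled WT. The KO values lay close together, and the highest of them was just under the lowest WT value. The mean was 0.893 ± 0.0192 in KO libraries and 1.05 ± 0.103 in WT libraries (SD, n = 3 each), a ratio of 0.847. The log2 change in limma was -0.21 (SE 0.09, 95% interval -0.44 to 0.01), at an adjusted p of 0.445, with an exact permutation p of 0.1.

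*Ccng1* encodes cyclin G1, which binds the phosphatase PP2A and acts on MDM2 (chromosome 11, 40748552 to 40755311, minus strand). It was at 1.02, 0.960 and 1.12 in the libraries labelled KO, against 0.947, 0.889 and 1.00 in those labelled WT. The groups overlapped, and the gene had the narrowest spread of the 9, with its highest library 1.26-fold above its lowest. Limma gave a log2 change of 0.11 (SE 0.09, 95% interval -0.11 to 0.34) and an adjusted p of 0.672. The log2 change was 0.06 without KO replicate 3 and 0.07 without WT replicate 2. This gene carries a match as close to the p53 consensus as that of *Cdkn1a*, and its KO mean was 1.09-fold its WT mean where that of *Cdkn1a* was 1.67-fold. The difference between the 2 genes was not tested.

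The death genes were divided. *Bbc3* encodes PUMA, a BH3-only protein that neutralises the BCL2 family's survival proteins (chromosome 7, 16308393 to 16318205, plus strand). It was at 1.16, 1.22 and 1.07 in the libraries labelled KO, against 0.729, 0.967 and 0.936 in those labelled WT. All KO libraries stood above all WT libraries, with the lowest WT library, replicate 1, set apart from the other WT libraries. The mean was 1.15 ± 0.0749 in KO libraries and 0.877 ± 0.129 in WT libraries (SD, n = 3 each), 1.31-fold. The log2 change in limma was 0.36 (SE 0.12, 95% interval 0.06 to 0.67), at an adjusted p of 0.351, with an exact permutation p of 0.1.

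*Bax*, whose protein opens pores in the outer mitochondrial membrane, lay on the other side (chromosome 7, 45461697 to 45466898, minus strand). It was at 0.963, 0.965 and 0.797 in the libraries labelled KO, against 1.10, 1.14 and 1.01 in those labelled WT. All KO libraries were below all WT libraries, KO replicate 3 by the most. The mean was 0.909 ± 0.0969 in KO libraries and 1.08 ± 0.0645 in WT libraries (SD, n = 3 each), a ratio of 0.839. Limma gave a log2 change of -0.23 (SE 0.10, 95% interval -0.49 to 0.02) and an adjusted p of 0.452, with an exact permutation p of 0.1. Without KO replicate 3 the log2 change was -0.15. A predicted gene, Gm45808, overlaps *Bax* on the same strand, so reads of the overlap cannot be assigned with certainty.

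*Phlda3*, an inhibitor of AKT signalling through its lipid-binding domain (chromosome 1, 135766119 to 135769136, plus strand), was at 1.23, 1.22 and 0.753 in the libraries labelled KO, against 0.891, 1.17 and 0.845 in those labelled WT. KO replicate 3 was the lowest of the 6 libraries and the other KO libraries the highest, so the groups overlapped. The log2 change in limma was 0.11 (SE 0.22), at an adjusted p of 0.873. Each library left out in turn changed this value by over 1.5 times. It was 0.002 without KO replicate 1, 0.0081 without KO replicate 2 and 0.32 without KO replicate 3, and 0.06, 0.24 and 0.03 without WT replicate 1, 2 and 3.

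*Trp53inp1* encodes a stress-induced nuclear protein that acts with p53 in death and autophagy (chromosome 4, 11156431 to 11174379, plus strand). It was at 1.35, 0.991 and 1.18 in the libraries labelled KO, against 0.412, 0.529 and 1.34 in those labelled WT. WT replicate 3 stood with the KO libraries, at more than the other WT libraries together, and the groups overlapped through that library. The mean was 1.17 ± 0.182 in KO libraries and 0.762 ± 0.508 in WT libraries (SD, n = 3 each). Limma gave a log2 change of 0.71 (SE 0.40, 95% interval -0.27 to 1.68) and an adjusted p of 0.538. Without WT replicate 3 the log2 change was 1.16 (adjusted p = 0.191 by limma), and without WT replicate 1 it was 0.41 (adjusted p = 0.784).

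**Figure D3:**
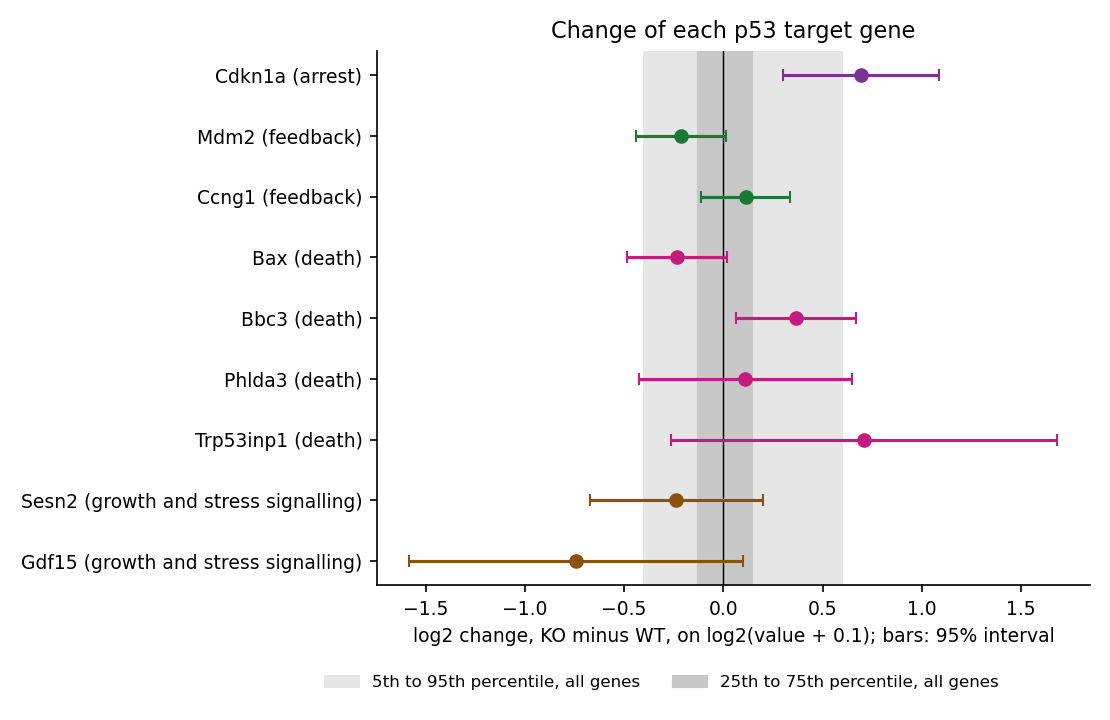
Log2 change of each p53 target gene, KO minus WT on log2(value + 0.1), with its 95% interval (not corrected for the number of genes), coloured by arm. Grey bands hold the 25th to 75th and the 5th to 95th percentile of the changes of all 12578 rows. Cdkn1a, Trp53inp1 and Gdf15 lie outside the wider band, which runs from -0.40 to 0.60.

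The genes of growth and stress signalling had lower means in the libraries labelled KO. *Gdf15*, a secreted hormone of the TGF-beta superfamily that curbs appetite and is released by stressed hepatocytes (chromosome 8, 70629393 to 70632456, minus strand), was at 0.691, 0.737 and 0.394 in the libraries labelled KO, against 1.01, 0.698 and 1.64 in those labelled WT. The groups overlapped by a narrow margin, since WT replicate 2 lay below KO replicate 2, and KO replicate 3 and WT replicate 3 were the lowest and the highest of all libraries. The highest was 4.16-fold above the lowest, the widest range of the 9 genes. The mean was 0.607 ± 0.187 in KO libraries and 1.11 ± 0.479 in WT libraries (SD, n = 3 each), a ratio of 0.545. This gave a log2 change of -0.74 (SE 0.34, 95% interval -1.58 to 0.10), at percentile 1.60 of all rows, and a limma adjusted p of 0.463. It was -0.45 without WT replicate 3, -0.50 without KO replicate 3 and -1.01 without WT replicate 2.

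*Sesn2*, which encodes the leucine sensor Sestrin 2 that holds back the growth kinase mTORC1 (chromosome 4, 132492032 to 132510501, minus strand), was at 1.13, 0.768 and 0.868 in the libraries labelled KO, against 0.900, 1.14 and 1.27 in those labelled WT. KO replicate 1 and WT replicate 1 each sat on the side of the other group. The log2 change in limma was -0.24 (SE 0.18, 95% interval -0.67 to 0.20), at an adjusted p of 0.646. It was -0.38 without KO replicate 1, -0.13 without KO replicate 2, -0.36 without WT replicate 1 and -0.14 without WT replicate 3. Here too a predicted gene, Gm12981, overlaps *Sesn2* on the same strand.

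A quotient of 2 genes within 1 library does not depend on how libraries were scaled against each other, and was formed for pairs picked after their values were seen, so it carries no test. The quotient of *Cdkn1a* to *Mdm2* was 1.55, 1.56 and 1.43 in the libraries labelled KO, against 0.887, 0.778 and 0.627 in those labelled WT. It exceeded 1 in each KO library and in no WT library. The quotient of the death genes *Bbc3* to *Bax* was 1.20, 1.27 and 1.35 in the libraries labelled KO, against 0.664, 0.850 and 0.925 in those labelled WT. It too was above 1 in each KO library and below 1 in each WT library. In both pairs 1 gene had all KO libraries above and the other all KO libraries below the WT libraries, so the choice of pairs fixed that these quotients would not overlap. Each gene is divided by its own average, so a quotient of 1 does not mean equal levels of the 2 genes. The quotient of *Gdf15* to *Sesn2* overlapped between the groups, with 0.613, 0.961 and 0.453 in KO libraries and 1.12, 0.613 and 1.29 in WT libraries.

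**Figure D4:**
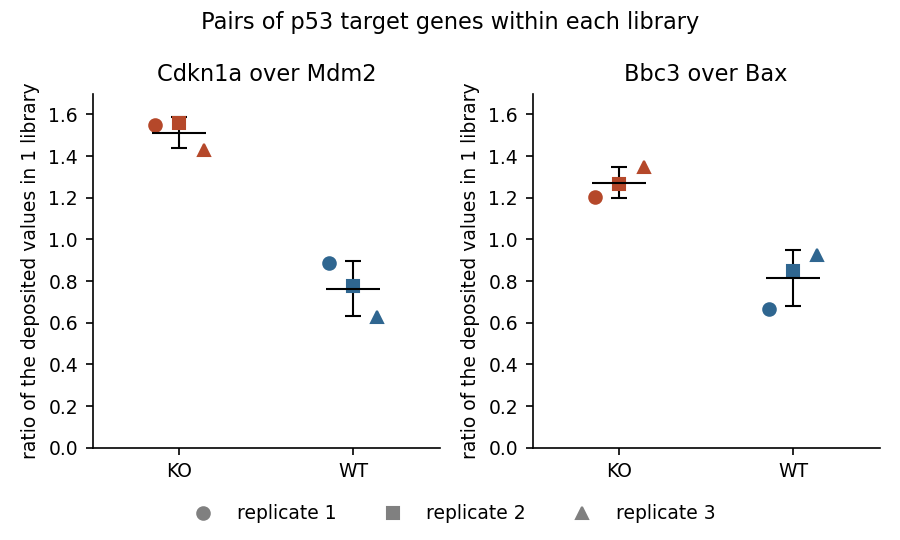
Quotient of the deposited values of Cdkn1a over Mdm2 and of Bbc3 over Bax within each library, for KO (red, left) and WT (blue, right), with replicate symbols, group mean and SD. Both quotients lie above 1 in all 3 KO libraries and below 1 in all 3 WT libraries, where 1 does not mean equal levels. The pairs were picked after their values were seen.

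*Trp53*, which encodes p53 itself, was at 1.16, 1.06 and 0.788 in the libraries labelled KO, against 1.01, 1.29 and 0.883 in those labelled WT. The groups overlapped, replicate 3 being the lowest library in both, and the log2 change was -0.07 (SE 0.19, limma adjusted p = 0.906). RNA level does not show the amount of p53 protein, which is set mainly by its turnover. Of 11 genes listed as p53 and its upstream regulators 8 were tested, and in limma 0 passed the threshold and 0 had an unadjusted p under 0.05. An unadjusted p under 0.05 was met by 12.0% of all rows. In all 8 the groups overlapped, as in most rows, since 8.86% of all rows had KO above WT and 10.1% KO below WT throughout. The median log2 change of the 8 was 0.01. The damage kinase *Atr* had a 1.30-fold higher mean in KO libraries (adjusted p = 0.451), the coactivator *Ep300* a ratio of 0.884 (adjusted p = 0.511) and *Trp53bp1*, of double-strand break repair, a ratio of 0.918 (adjusted p = 0.633).

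Other p53 targets were listed by the same arms, 44 genes of which 39 were tested. In limma 0 of them passed the threshold, and 4 of 39 had an unadjusted p under 0.05, a share near the 12.0% of all rows. Their median log2 change was 0.09, with 26 positive and 13 negative. In 5 every KO library was above every WT library and in 1 below, shares of 39 to be read against the 8.86% and 10.1% of all rows. Among other arrest targets (9 tested, median 0.10) the smallest p was that of *Gtse1*, a p53-induced gene of G2 that also peaks with cell division. It stood at 1.61, 1.46 and 1.45 in the libraries labelled KO, against 0.755, 0.788 and 0.562 in those labelled WT, 2.15-fold, with a limma adjusted p of 0.098. *Sfn*, or 14-3-3 sigma, had a ratio of 0.821 and the antiproliferative *Btg2* was 1.26-fold, with overlapping groups and adjusted p-values of 0.601 and 0.697.

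Other feedback targets overlapped between the groups in all 6 tested, as most rows did. Of all rows, 8.86% had every KO library above and 10.1% every KO library below the WT libraries. The changes were positive in 3 and negative in 3, and their median log2 change was 0.01. By limma 0 passed and 0 had an unadjusted p under 0.05, beside 12.0% of all rows. *Mdm4*, the partner of MDM2 that masks p53's activation domain, was at 1.00, 0.937 and 1.33 in the libraries labelled KO, against 0.946, 0.873 and 1.05 in those labelled WT (limma adjusted p = 0.709). *Ppm1d*, the phosphatase that switches off the damage response, was at 1.00, 0.935 and 0.915 in the libraries labelled KO, against 1.13, 0.910 and 1.01 in those labelled WT (adjusted p = 0.786). The cyclin G1 relative *Ccng2* had a 1.27-fold higher KO mean (adjusted p = 0.662).

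Other death targets had a median log2 change of 0.05 over 11 tested genes. By limma 0 passed and 0 had an unadjusted p under 0.05, beside 12.0% of all rows. In *Siva1*, a pro-apoptotic adaptor, and *Bak1*, the close relative of *Bax*, every KO library was above every WT library. This held for 8.86% of all rows. The means of *Siva1* and *Bak1* were 1.14- and 1.20-fold higher (limma adjusted p = 0.490 and 0.550). *Bak1* was at 1.25, 1.04 and 1.01 in the libraries labelled KO, against 1.01, 0.985 and 0.760 in those labelled WT, so KO replicate 3 and WT replicate 1 nearly met. The death receptor *Fas* had a 1.30-fold higher mean with overlapping groups (adjusted p = 0.518).

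Repair and metabolic targets had a median log2 change of 0.13 over 13 tested genes. In limma 0 passed, and 3 of 13 had an unadjusted p under 0.05, beside 12.0% of all rows. *Ddit4*, an mTORC1 inhibitor that also answers to glucocorticoid and hypoxia, was at 1.34, 1.56 and 1.08 in the libraries labelled KO, against 0.959, 0.495 and 0.649 in those labelled WT, 1.89-fold (adjusted p = 0.285). The translesion polymerase *Polk* was 1.54-fold (adjusted p = 0.333), with all its KO libraries above all WT libraries. *Ephx1*, the microsomal epoxide hydrolase, was at 0.863, 0.818 and 0.983 in the libraries labelled KO, against 1.02, 1.20 and 1.15 in those labelled WT, a ratio of 0.789 (adjusted p = 0.345).

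**Figure D5:**
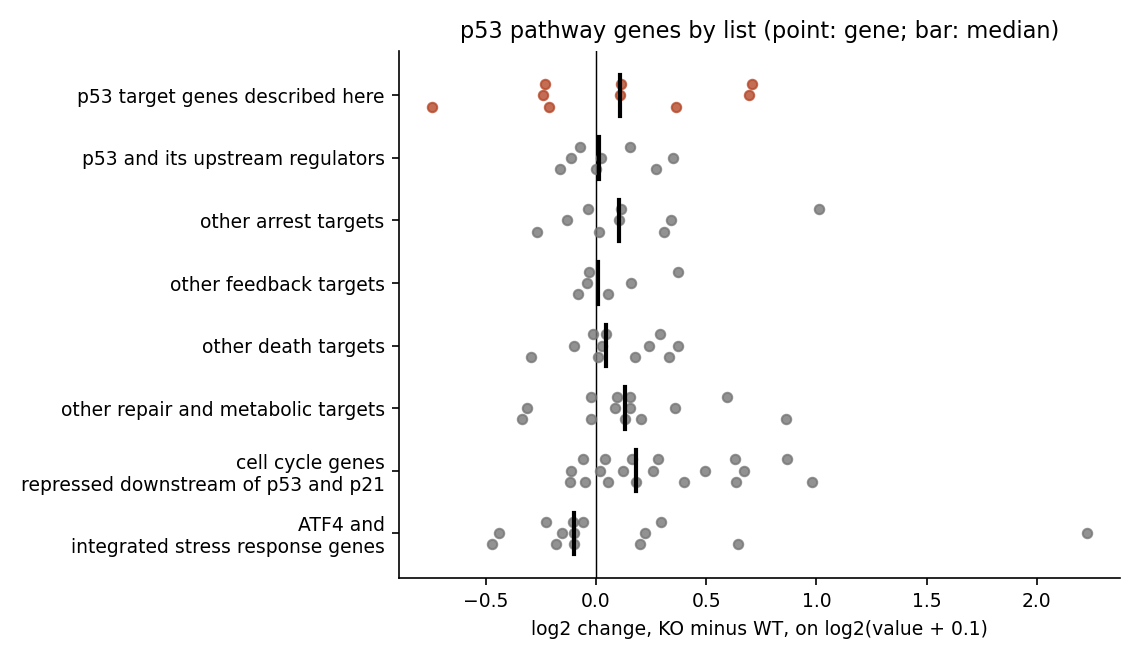
Log2 change, KO minus WT on log2(value + 0.1), of each tested gene in the p53 target genes (red, top row) and in lists of other pathway genes (grey), with a black bar at each list's median. Medians run from -0.10 for ATF4 and integrated stress response genes to 0.18 for cell cycle genes, and no gene shown passed the adjusted threshold.

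Genes of cell division that p53 and p21 are known to repress were listed as well. Of 23 listed genes 19 were tested, and in limma 0 passed. The log2 change was positive in 15 and negative in 4, with a median of 0.18, and in 16 of the 19 the groups overlapped. An unadjusted p under 0.05 was met by 3 of 19, near the 12.0% of all rows, and in 3 of 19 every KO library was above every WT library, beside 8.86% of all rows. The replication helicase subunit *Mcm2* was at 1.26, 1.33 and 1.14 in the libraries labelled KO, against 0.868, 0.833 and 0.853 in those labelled WT (1.46-fold, adjusted p = 0.164). The mitotic kinase *Cdk1* was 1.65-fold (adjusted p = 0.309) and the anaphase activator *Cdc20* 1.83-fold (adjusted p = 0.386). The mean value over the list ranged from 1.02 to 1.19 in KO libraries and from 0.763 to 1.03 in WT libraries, so the groups overlapped.

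*Gdf15*, *Sesn2* and *Bbc3* can also be induced in the integrated stress response, whose main transcription factor is ATF4, so the genes of that response were listed beside them. Of 16 listed 14 were tested, 5 with a positive and 9 with a negative change, and the median log2 change was -0.10. In limma 0 passed, and 4 of 14 had an unadjusted p under 0.05, beside 12.0% of all rows. *Asns*, asparagine synthetase, was at 1.45, 2.39 and 1.91 in the libraries labelled KO, against 0.300, 0.494 and 0.218 in those labelled WT, 5.68-fold (adjusted p = 0.098). The cystathionine lyase gene *Cth* was 1.25-fold (adjusted p = 0.326). *Atf4* itself was at 0.970, 0.878 and 0.883 in the libraries labelled KO, against 1.05, 1.06 and 1.12 in those labelled WT (ratio 0.843, adjusted p = 0.358). In *Asns*, as in *Bbc3*, every KO library was above every WT library, as in 8.86% of all rows. In *Atf4* every KO library was below every WT library, as in 10.1% of all rows. The groups of *Gdf15* and of *Sesn2* overlapped. Whether the integrated stress response had a part in these values was not tested.

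Likeness of pattern was measured as the root-mean-square difference of log2(value + 0.1), centred over the 6 libraries, for the 3 p53 target genes with the widest range. For *Cdkn1a* (own root-mean-square 0.39) the nearest genes were the water channel *Aqp8* at 0.06, the AMP deaminase *Ampd3* at 0.06 and the kinase *Stk39* at 0.06. For *Gdf15* (0.55) they were the zinc-finger factor *Klf10* at 0.10, *Gnb1l* at 0.14 and *Whrn* at 0.21. For *Trp53inp1* (0.59) they were the BMP antagonist *Nbl1* at 0.17, *Zfp97* at 0.17 and *G6pc*, the glucose-6-phosphatase of glucose release, at 0.17. *Nbl1* was at 1.08, 0.967 and 1.10 in the libraries labelled KO, against 0.377, 0.606 and 1.55 in those labelled WT, with WT replicate 3 again highest in its group. None of the other p53 target genes was among these 9 nearest genes. Only the 3 nearest of all rows were kept for each, so this absence cannot show whether the p53 target genes vary together.

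Marker lists of other liver cells were measured as well, by limma 0 markers passed the threshold in any list, and their part in the p53 target values was not tested. In bulk tissue, fewer cells of a type and less RNA per cell cannot be told apart. The mean value over 6 T and NK cell markers ranged from 0.910 to 1.81 in KO libraries and from 0.597 to 0.703 in WT libraries. It was highest in KO replicate 1, where *Nkg7* stood at 2.76, *Cd3e* at 2.42 and *Cd3g* at 2.09 (named after their values were seen). The list did not move together. *Cd3d* was at 0.983 in KO replicate 1, the lowest of its KO libraries, and *Cd3e* was at 0.225 in KO replicate 3, below every WT library. Over 7 monocyte and macrophage markers it ranged from 1.09 to 1.29 in KO libraries and from 0.749 to 0.935 in WT libraries. For 5 Kupffer cell markers it ranged from 1.04 to 1.28 in KO libraries and from 0.787 to 0.960 in WT libraries. Stellate cell and fibroblast markers (7) ranged from 1.03 to 1.14 and from 0.850 to 0.946 in KO and WT libraries, and cholangiocyte markers (6) from 0.895 to 1.31 and from 0.728 to 0.871. The means of these 5 lists did not overlap between the groups, with KO above WT. Single markers overlapped in 3 of 6 of the T and NK cell list and 4 of 7 of the monocyte and macrophage list. They overlapped in 2 of 5 of the Kupffer cell list, 4 of 7 of the stellate cell list and 5 of 6 of the cholangiocyte list. The rest of these markers had every KO library above every WT library, as 8.86% of all rows did. The hepatocyte markers overlapped, with 0.966 to 1.02 in KO libraries and 0.987 to 1.00 in WT libraries, as did the endothelial (6), B cell (3) and neutrophil (3) markers. The 3 tested fetal liver and hepatoma markers ranged from 0.509 to 1.80 in KO libraries and from 0.527 to 1.21 in WT libraries, and held 3 values at 0, the only such values in the marker lists.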

How the data were processed

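Polyadenylated RNA of 3 KO and 3 WT liver libraries was measured. The deposited values are a linear ratio in a table of 12792 rows, 189 of them without values. The 6 values of a row never exceed 7 in sum and reach it (within 1e-09) in 99 rows, from which the division by a mean over 7 libraries was read. STAR 2.10, R 4.0.5 and mm10 are named without a role, per the submitters' processing notes. The counting tool, annotation, use of strand and scaling of libraries were not given in the sources used here.

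Relative depth was estimated from 193 rows holding a 0. Rows above 0 in 3 or more libraries (12578) were tested on log2(value + 0.1) with limma 3.58.1 under R 4.3.3, no mean trend being fitted, and p-values were adjusted by Benjamini-Hochberg over all of these rows. The fit had 4 residual and 1.87 prior degrees of freedom and was tested on simulated data. Folds are ratios of group means of the deposited values. Positions are from GENCODE M21 and promoter windows from RefSeq (GRCm38.p6). Exact tests used Python 3.11.15 and numpy 2.4.6.

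The genes and lists were chosen with earlier results of these data known. The text names the p53 target genes, *Akr1d1*, *Trp53*, *Mdm4*, *Ppm1d*, the 3 genes with the smallest p of each pathway list and the 3 nearest genes in pattern. The search for paired half-sites was set after the windows had been read. Names standing in 2 or more rows (110) were left out of lists. Alternatives covered the pseudocount, filter, mean trend, scaling, replicate block and leaving out each library.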

Additional observations from a re-analysis of the deposited data

How the results depend on the processing

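Under all 13 alternatives run, 0 of the 9 p53 target genes passed the limma threshold, and each kept the direction of its log2 change. The adjusted p of *Cdkn1a* ran from 0.181 with a mean trend to 0.454 without KO replicate 2. Its log2 change ran from 0.58 to 0.86 when 1 library was left out, and was 0.38 with a pseudocount of 1. The median log2 change of the 9 genes lay between 0.002 and 0.07 without 1 library in turn. The count over all rows, 2 in the main setting, was 1 with a pseudocount of 0.5, 1 with a pseudocount of 1, 0 with only rows above 0 in every library and no pseudocount, and 0 with a mean trend, where 1495 and 1573 rows had an unadjusted p under 0.05. It ranged from 1 to 4 without 1 library, with 1 lacking KO replicate 1 or WT replicate 2 and 4 lacking KO replicate 2 or WT replicate 3. Deviations of same-numbered libraries from their group means had correlations over genes of -0.02, -0.002 and 0.09. Differently numbered libraries gave -0.08 to 0.08. With so few libraries these correlations cannot decide whether the numbers pair the samples, which is not known. With a replicate block the count over all rows was 1, none of the p53 target genes passed, and their median log2 change was 0.11. Depth sets a limit that cannot be stated, because the number of reads behind a value is unknown.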
